A study of Mus musculus with 6 samples.

Results

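The genes described here are 7 long noncoding RNA genes that carry small nucleolar RNAs (snoRNAs) inside them, Gas5, Snhg1, Snhg8, Snhg12, Snhg15, Zfas1 and Epb41l4aos, and, apart from these, the 2 nuclear long noncoding RNAs Neat1 and Malat1. They were picked by gene symbol, with no measured value in the rule, and make up 9 of the 54532 genes in the table. The choice was made with earlier results of these data known, so it was not independent of the values below. All 9 reached 1 TPM or more (a read density per exon length, scaled to the same total in each library) in 2 or more of the 6 libraries, which was the condition for being tested and left 12755 genes. The study addressed how metformin, a diabetes drug, alters the early macrophage response to LPS, the bacterial outer membrane component sensed by TLR4. The libraries came from bone-marrow-derived macrophages (BMDMs) of C57BL/6 mice, grown in medium conditioned by L929 cells, and were made from poly-A RNA. Of 3 groups with 2 libraries each (replicates A and B), one was untreated (Untr), one received 100 ng/ml LPS for 2 h (LPS), and in the third 5 mM metformin was present for 6 h before the same LPS dose (Met + LPS). No group had metformin without LPS, so the effect of metformin alone could not be measured. The sources used here say that cells were plated in duplicate and do not say that replicates came from separate mice, so every p-value measures only the spread between these libraries.

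The 6 libraries held 25457016 to 30762753 reads on genes, as recovered from the TPM values. All 8 macrophage markers passed the filter, with a summed level of 30900 to 46600 TPM per library and group means of 45600 (Untr), 37700 (LPS) and 30900 TPM (Met + LPS). In Met + LPS vs. LPS, 6 of these 8 were called lower and none higher by limma, among them Fcgr1 (-1.14) and Mertk (-0.61). Of all 12755 tested genes, 18% were called lower and 14.5% higher in that comparison. The summed levels of the markers of other cells stayed at 0.352 to 0.806 TPM for fibroblasts (4 genes), 0.766 to 3.18 TPM for B cells (4 genes), 0.537 to 2.80 TPM for dendritic cells (4 genes) and 2.66 to 7.06 TPM for T cells (6 genes, 2 of them at 0 in all libraries). Of 5 erythroid markers, 4 were at 0 in all libraries. Neutrophil and progenitor markers (6 genes) reached 24.5 to 42.4 TPM, with the highest mean in Met + LPS (41.6 TPM, against 25.4 TPM in LPS and 29.3 TPM in Untr). Only 4 of them were tested, and none was called in Met + LPS vs. LPS. The part of these marker levels in the results below was not tested. Over the 12755 tested genes the median log2 fold change of LPS vs. Untr was -0.48, and it was -0.01 after each library had been rescaled by its median ratio to the other libraries (median-ratio scaling). TPM values are shares of a library, so less RNA of a gene per cell and more RNA of other genes cannot be told apart, and changes are therefore given on both scales where the choice matters.

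Most snoRNAs of vertebrates are cut from introns. A snoRNA host gene is transcribed and spliced like a messenger RNA gene, the excised intron is trimmed to the snoRNA, and the snoRNA then guides 2'-O-methylation (box C/D class) or pseudouridylation (box H/ACA class) of ribosomal and spliceosomal RNA. In hosts such as Gas5 the spliced exons code for no conserved protein, and the exported RNA is bound by ribosomes and destroyed by nonsense-mediated decay, so that its level rises when translation is inhibited. Many host genes start with a run of pyrimidines, the 5' terminal oligopyrimidine (TOP) motif known from ribosomal protein genes. Neat1 and Malat1 stay in the nucleus, where Neat1 is the RNA scaffold of paraspeckles and Malat1 is concentrated in nuclear speckles.

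The table had 29 rows for annotated snoRNAs inside the 7 host genes, all on the strand of the host and 60 to 137 bases long, at 27 distinct positions. Gas5 held 10 of them, Snhg1 8, Snhg12 5, Zfas1 3, and Snhg8, Snhg15 and Epb41l4aos 1 each. Both classes are shown by 3 snoRNAs of Gas5, Snhg12 and Snhg8, 5' to 3' as DNA letters from the GENCODE vM21 transcripts (GRCm38). Snord80 lies in Gas5 at chr1:161037601-161037681 on the plus strand, Snord99 in Snhg12 at chr4:132310691-132310764 on the plus strand, and Snora24 in Snhg8 at chr3:123507937-123508066 on the minus strand. In the first 2, capitals mark the letters TGATGA near the 5' end (box C) and CTGA near the 3' end (box D), and in the third they mark ACA, placed 3 bases before the 3' end.
Snord80: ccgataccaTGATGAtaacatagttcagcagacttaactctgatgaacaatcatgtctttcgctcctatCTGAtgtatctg
Snord99: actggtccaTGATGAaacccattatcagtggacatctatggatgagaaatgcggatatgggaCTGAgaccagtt
Snora24: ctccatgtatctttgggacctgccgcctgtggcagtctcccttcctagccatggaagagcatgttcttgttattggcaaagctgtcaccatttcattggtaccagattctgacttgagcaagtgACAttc

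Among the 29 rows, 12 (41.4%) had TGATGA in the first 15 bases together with CTGA in the last 15, and 6 (20.7%) had ACA at the place shown for Snora24. The same letters were present in 19.5% and 18% of all 1507 annotated snoRNA transcripts. Snord80 and Snora16a are each listed more than once among the 29. The other 11 rows had neither, Snord78, Snord47, Snord12 and Snord22 among them, so these shares count exact letters and not classes. The snoRNAs themselves were all but invisible in these libraries. In 28 of the 29 rows no read was counted in any library, and the remaining one, Gm23639 in Epb41l4aos, had 0 to 3 reads and at least 1 read in 5 of the 6 libraries. Those 28 rows lie entirely inside annotated exons of their host, because transcripts that retain the introns are annotated, and how reads shared by 2 genes were counted is not given in the sources used here. Mature snoRNAs also carry no poly-A tail. The host values below are therefore values of the polyadenylated host RNA and not of the snoRNAs. They also do not separate spliced host RNA from RNA that retains introns. In Snhg1, Snhg8, Snhg12 and Zfas1 the annotated exons of all transcripts together form 1 unbroken block.

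The first bases of the transcripts were read from the RefSeq promoter table (GRCm38.p6), which had entries for 6 of the 7 hosts and for Malat1. The sequences run from 20 bases before the annotated start to 30 bases from it, and capitals mark the longest unbroken run of C and T in the window from 5 bases before to 10 bases after the start. They are shown because a pyrimidine run at the start has been described for many host genes. A run was counted wherever it began in that window, which is looser than a TOP motif at the first transcribed base. The positions were chr1:161035146-161035195 (plus strand) for the second of the 2 annotated starts of Gas5, chr4:132308658-132308707 (plus) for Snhg12, chr3:123508307-123508356 (minus) for Snhg8, chr19:8723467-8723516 (plus) for Snhg1, chr2:167062914-167062963 (plus) for Zfas1 and chr11:6528731-6528780 (minus) for Snhg15.
Gas5: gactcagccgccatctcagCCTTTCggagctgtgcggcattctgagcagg
Snhg12: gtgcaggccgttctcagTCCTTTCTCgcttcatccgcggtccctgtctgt
Snhg8: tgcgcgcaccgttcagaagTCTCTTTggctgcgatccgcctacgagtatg
Snhg1: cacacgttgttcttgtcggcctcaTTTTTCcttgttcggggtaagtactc
Zfas1: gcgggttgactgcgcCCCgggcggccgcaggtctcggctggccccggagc
Snhg15: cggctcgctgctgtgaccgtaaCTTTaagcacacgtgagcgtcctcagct

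Within the window the run was 9 bases in Snhg12, 7 in Snhg8, 6 in Snhg1 and at the second start of Gas5 (3 at its first start, which is not shown), 4 in Snhg15 and 3 in Zfas1. In Snhg1 and Zfas1 the run is cut by the window edge and continues beyond it, so these lengths do not rank the genes. A run of at least 5 was present at 4 of the 7 host starts (57.1%), at 6 of 13 starts (46.2%) of other noncoding hosts and at 26.4% of all 32851 starts in the table. Among protein-coding hosts, many of them genes of ribosomal proteins and translation factors, it was present at 3 of 18 starts (16.7%). This lies below the share of all starts, so the measure did not pick out that group. The share of the 7 host starts therefore does not show that these transcripts begin with a TOP motif. Neat1 and Epb41l4aos had no entry.

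In untreated BMDMs, Malat1 had the highest level of the 9 genes (202 TPM ± 19.3, SD, n = 2), followed by Neat1 (52.0 ± 1.12) and Gas5 (46.8 ± 0.0856). After LPS the order of the hosts was a different one, with Zfas1 first (36.6 TPM ± 0.982), then Snhg15, Snhg8 and Gas5, whose libraries overlapped from one to the next, and Snhg12 last (3.52 ± 0.105). In Met + LPS, Zfas1 (40.6 TPM ± 1.93) and Gas5 (37.9 ± 3.30) overlapped at the top of the hosts, and Epb41l4aos (30.03 ± 2.87) overlapped with Snhg8 (27.6 ± 2.68). These are levels per length of all annotated exons, and that length is 5.28 times the length of the listed transcript for Gas5 and 4.91 times for Snhg1 but equal to it for Epb41l4aos, Neat1 and Malat1, so the order between genes depends on the length used. In a TPM ratio of the same gene between groups its length cancels. It does not cancel fully in the fold changes below, which were taken on log2(TPM + 1).

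**Figure D1:**
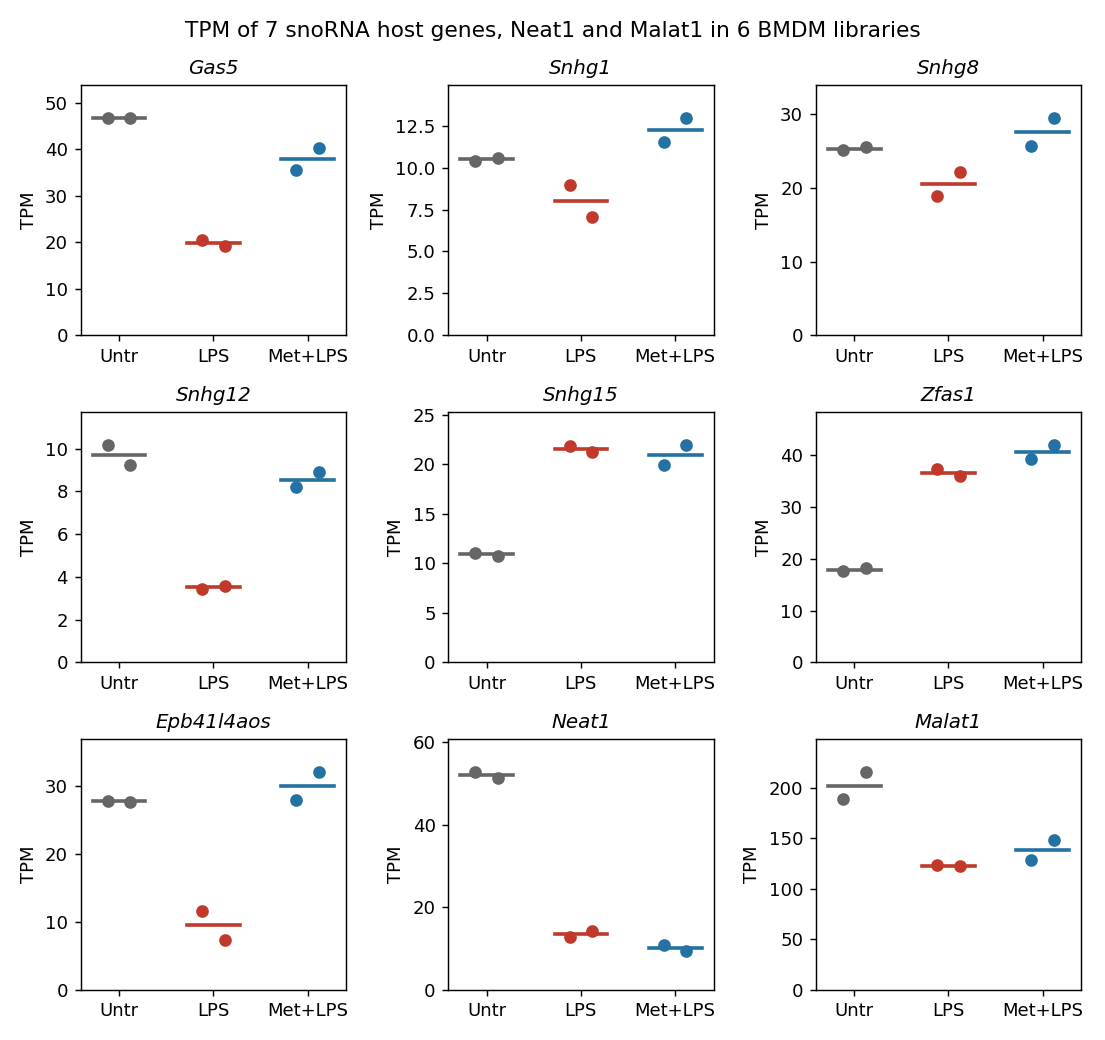
TPM (y axis, linear from 0) of the 7 snoRNA host genes, Neat1 and Malat1 in the 3 groups, with each point 1 library (replicate A left, B right) and each line the mean of 2 libraries. Gas5, Snhg12 and Epb41l4aos drop after LPS and stand higher in Met + LPS, Snhg15 and Zfas1 stand higher in both LPS groups, and Neat1 is lowest in Met + LPS.

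The 7 hosts moved in opposite directions in LPS vs. Untr. Gas5, Snhg12 and Epb41l4aos fell to between 0.342 and 0.423 of their untreated means, Zfas1 and Snhg15 rose to 2.05 and 1.97 times theirs, and Snhg1 and Snhg8 did not pass the test. By limma, with an adjusted p-value (Benjamini-Hochberg over all tested genes) under 0.01, 3 of the 7 were called lower and 2 higher, where 60.1% of all tested genes were called lower and 16.2% higher. After median-ratio scaling the same genes were called, against 27.6% lower and 30.6% higher of all tested genes. No host reached the log2-transformed fold-change of 2 that serves as the cut-off for this comparison, which 6.08% of the tested genes reached together with the adjusted p-value.

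Gas5 (growth arrest-specific 5, chromosome 1, 161034422 to 161038539, plus strand of GRCm38) had 46.7 and 46.9 TPM in Untr, 20.4 and 19.1 TPM in LPS, and 35.6 and 40.3 TPM in Met + LPS. All 3 groups stood apart, with Met + LPS between the others. Its log2 fold change in LPS vs. Untr was -1.20 (SE 0.07, 95% interval -1.36 to -1.04, limma adjusted p = 6.17e-06) and -0.69 after scaling. Snhg12 (chromosome 4, 132308623 to 132311024, plus strand), the host of Snord99 and of 4 listed H/ACA snoRNA rows, had 10.2 and 9.24 TPM in Untr, 3.445 and 3.59 TPM in LPS, and 8.21 and 8.89 TPM in Met + LPS. Its 2 LPS libraries lay far below the other 4. The log2 fold change in LPS vs. Untr was -1.24 (SE 0.08, limma adjusted p = 1.15e-05), and -0.79 after scaling. Snhg12 stayed at 0.169 to 0.230 of the level of Gas5 in every library.

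Epb41l4aos (chromosome 18, 33794892 to 33795986, plus strand), named for its place antisense to Epb41l4a, had 27.8 and 27.6 TPM in Untr, 11.6 and 7.33 TPM in LPS, and 28 and 32.1 TPM in Met + LPS. The LPS libraries were the lowest here too, and they differed from each other more than those of the other hosts. Its log2 fold change was -1.49 (SE 0.18, 95% interval -1.92 to -1.05, limma adjusted p = 2.43e-04), or -0.99 after scaling. With 430 exon bases it had the fewest reads of the 9 genes. The 38 and 23 reads of the LPS libraries gave exact Poisson 95% intervals of 26.9 to 52.2 and 14.6 to 34.5 reads, which overlap and cover counting error only. Each of the other hosts had at least 63 reads in each library.

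Zfas1 and Snhg15 went the other way. Zfas1 (chromosome 2, 167062934 to 167065862, plus strand), which lies antisense to the start of Znfx1 and carries Snord12, had 17.6 and 18.1 TPM in Untr, 37.3 and 35.9 TPM in LPS, and 39.2 and 41.9 TPM in Met + LPS. Both LPS groups lay above both untreated libraries. The log2 fold change in LPS vs. Untr was 0.99 (SE 0.05, limma adjusted p = 4.25e-06), and 1.496 after scaling. Snhg15 (chromosome 11, 6525591 to 6528760, minus strand), the host of Snora9, had 11.03 and 10.8 TPM in Untr, 21.85 and 21.2 TPM in LPS, and 19.9 and 21.95 TPM in Met + LPS. Again the 4 libraries with LPS were the high ones, and the LPS and Met + LPS libraries overlapped. Its log2 fold change in LPS vs. Untr was 0.92 (SE 0.06, limma adjusted p = 1.45e-05), and 1.40 after scaling. The ratio of Zfas1 to Gas5 within a library therefore went from 0.377 and 0.387 in Untr to 1.82 and 1.88 in LPS, and such a ratio does not depend on the scaling of the library.

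Snhg1 and Snhg8 were close to the threshold, and their direction depended on the scaling. Snhg1 (chromosome 19, 8723475 to 8726443, plus strand), which holds 8 of the snoRNA rows, Snord22 among them, had 10.4 and 10.6 TPM in Untr, 8.94 and 7.06 TPM in LPS, and 11.5 and 13.0 TPM in Met + LPS. Its log2 fold change in LPS vs. Untr was -0.36 (SE 0.11, limma adjusted p = 0.0192) on the deposited scale and 0.11 (adjusted p = 0.388) after scaling. Snhg8 (chromosome 3, 123507552 to 123508404, minus strand), the host of Snora24, had 25.1 and 25.5 TPM in Untr, 18.9 and 22.2 TPM in LPS, and 25.7 and 29.5 TPM in Met + LPS. Its value was -0.29 (SE 0.09, limma adjusted p = 0.0205), and 0.21 (adjusted p = 0.0818) after scaling. Without LPS replicate A, Snhg1 was called lower (-0.51, limma adjusted p = 0.00401), and without LPS replicate B, Snhg8 was (-0.40, adjusted p = 0.00928).

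**Figure D2:**
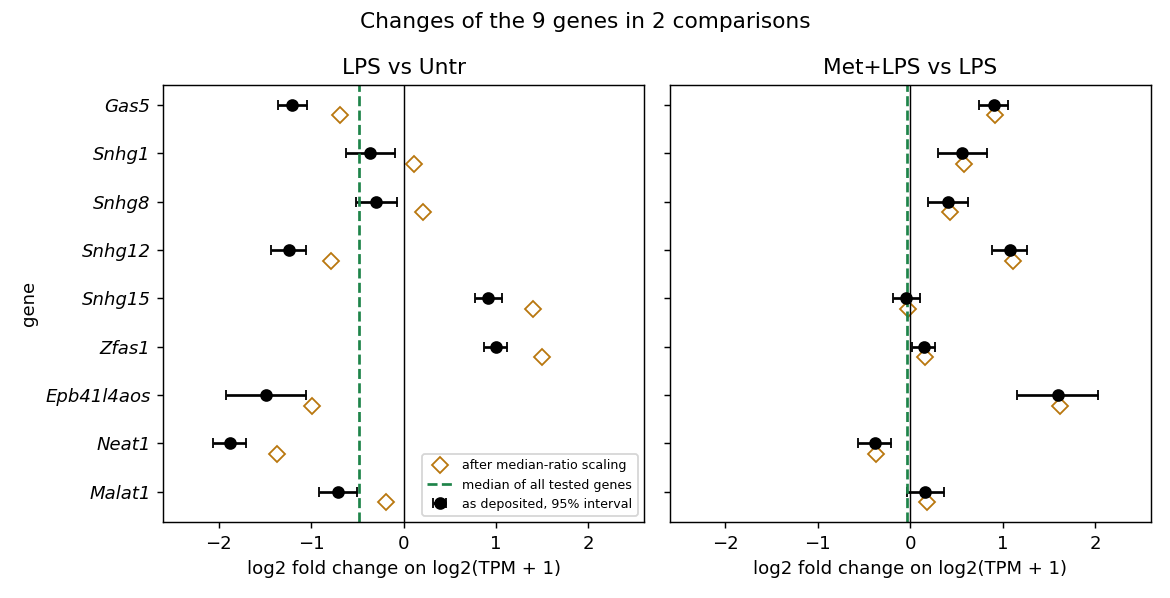
Log2 fold changes on the log2(TPM + 1) scale (x axis) of the 9 genes in LPS vs. Untr and in Met + LPS vs. LPS, as filled points with 95% limma intervals, and after median-ratio scaling as open diamonds, with the median of all 12755 tested genes as a dashed line. Scaling moves every LPS vs. Untr value to the right, taking Snhg1 and Snhg8 across 0, and leaves the Met + LPS vs. LPS values nearly in place.

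The next comparison, Met + LPS vs. LPS, asks what the metformin pretreatment changed in LPS-stimulated cells. In 6 of the 7 hosts both Met + LPS libraries lay above both LPS libraries, the exception being Snhg15, where 33.8% of all tested genes had this separation upwards and 40% downwards. By limma, 4 hosts rose (Epb41l4aos, Snhg12, Gas5 and Snhg1) and none fell at an adjusted p-value under 0.01, where 14.5% of all tested genes were called higher and 18% lower. Of these 4, Epb41l4aos, Snhg12 and Gas5 also exceeded the log2-transformed fold-change of 0.7 used for this comparison, as did 4.19% of the tested genes in the direction of an increase. The median log2 fold change of the 7 hosts was 0.56, against -0.03 over all tested genes. Here the scaling mattered little, and after it 5 hosts were called higher, against 15.6% higher and 17.4% lower of all tested genes.

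Epb41l4aos had the largest difference of the 7, a mean of 30.03 TPM in Met + LPS and of 9.47 TPM ± 3.03 in LPS, with a log2 fold change of 1.595 (SE 0.18, 95% interval 1.16 to 2.03, limma adjusted p = 6.33e-04). Leaving out each library in turn gave 1.30 to 1.89, with the call kept each time. Snhg12 rose by 1.08 on the log2 scale (SE 0.08, limma adjusted p = 1.13e-04) and Gas5 by 0.90 (SE 0.07, limma adjusted p = 1.14e-04). These are the 3 hosts that LPS had lowered. Both comparisons use the same LPS libraries, so a chance deviation of these libraries would move both values in opposite directions.

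Snhg1 rose by 0.56 (SE 0.11, 95% interval 0.30 to 0.83, limma adjusted p = 0.00623). This call was also lost with no filter on low values (limma adjusted p = 0.0306), with only the compared groups in the fit (0.0273), with no trend (0.0166) and with the replicate letter as a block (0.0116). Without Untr replicate A, Untr replicate B, LPS replicate B, Met + LPS replicate A or Met + LPS replicate B the adjusted p-values by limma were 0.0267, 0.0267, 0.0213, 0.0186 and 0.0435, with log2 fold changes of 0.41 to 0.64. Snhg8 missed the threshold narrowly, with a log2 fold change of 0.41 (SE 0.09, 95% interval 0.19 to 0.63, limma adjusted p = 0.0103, and 0.00981 after scaling). Zfas1 and Snhg15, the hosts that LPS had raised, had log2 fold changes of 0.15 (95% interval 0.02 to 0.27, limma adjusted p = 0.0547) and -0.04 (95% interval -0.19 to 0.11, limma adjusted p = 0.620). The 2 groups overlapped for Snhg15 and stood apart by a small margin for Zfas1.

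Replicate B of Met + LPS, the library with the most reads (30762753), had the higher TPM value of the 2 Met + LPS libraries for 7 of 7 hosts. Its part in the result was not tested beyond leaving it out, which left Gas5 at 0.82, Snhg12 at 1.03 and Epb41l4aos at 1.5, all still called.

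Set against untreated cells, the Met + LPS libraries show where the hosts ended up with both agents. By limma, Zfas1 (log2 fold change 1.14, adjusted p = 2.41e-06) and Snhg15 (0.88, adjusted p = 1.70e-05) were called higher and Gas5 (-0.30, adjusted p = 0.00501) lower, where 16.3% of the tested genes were called higher and 58.8% lower. The value of Gas5 turned to 0.23 after median-ratio scaling (adjusted p = 0.0177), and its call was lost without Untr replicate A (adjusted p = 0.0368), Untr replicate B (0.0383) or Met + LPS replicate A (0.0201). Epb41l4aos (0.11, limma adjusted p = 0.594), Snhg8 (0.12, adjusted p = 0.262), Snhg1 (0.20, adjusted p = 0.131) and Snhg12 (-0.17, adjusted p = 0.0914) did not pass the test on the deposited scale. After scaling, Snhg1 (0.69, limma adjusted p = 0.00123) and Snhg8 (0.64, adjusted p = 8.33e-04) did, where 33.4% of all tested genes were called higher and 29.7% lower. The summed level of the 7 hosts was 148.9 and 148.7 TPM in Untr, 122.5 and 116.3 TPM in LPS, and 168.1 and 187.6 TPM in Met + LPS.

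Neat1 (chromosome 19, 5824708 to 5845478, minus strand) had the largest decrease of the 9 genes in LPS vs. Untr. It had 52.8 and 51.2 TPM in Untr, 12.8 and 14.1 TPM in LPS, and 10.7 and 9.49 TPM in Met + LPS, from 1681 to 8337 reads per library. The untreated libraries were far above the other 4, and the Met + LPS libraries lay below both LPS libraries. In LPS vs. Untr the log2 fold change was -1.88 (SE 0.07, 95% interval -2.06 to -1.70, limma adjusted p = 1.43e-06), or -1.37 after scaling. In Met + LPS vs. LPS it was -0.38 (SE 0.07, 95% interval -0.56 to -0.20, limma adjusted p = 0.00611). Neat1 thus moved in the opposite direction to the 4 hosts called in that comparison, but its call was lost when any library except Met + LPS replicate A was left out, with log2 fold changes of -0.45 to -0.30 and limma adjusted p-values of 0.0259 (without Untr A), 0.0258 (Untr B), 0.0117 (LPS A), 0.0365 (LPS B) and 0.0308 (Met + LPS B). Against untreated cells, Met + LPS lowered it by 2.26 on the log2 scale (-2.26, limma adjusted p = 6.87e-07).

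Malat1 (chromosome 19, 5795690 to 5802672, minus strand) lies next to Neat1 on the same strand. It had 188 and 216 TPM in Untr, 123 and 123 TPM in LPS, and 129 and 148 TPM in Met + LPS. The untreated libraries were the highest, and the LPS libraries the lowest. In LPS vs. Untr the log2 fold change was -0.71 (SE 0.08, limma adjusted p = 2.20e-04), and -0.18 (adjusted p = 0.0882) after scaling, so that this decrease did not pass the test relative to the shift of all genes. Between Met + LPS and LPS it was 0.17 (95% interval -0.04 to 0.37, limma adjusted p = 0.151). In Met + LPS vs. Untr the value was -0.54 (limma adjusted p = 8.50e-04), and 0.00 (-0.004, adjusted p = 0.965) after scaling. The ratio of Malat1 to Neat1 was 3.57 and 4.21 in Untr, 9.66 and 8.70 in LPS, and 12 and 15.6 in Met + LPS. Both RNAs are only partly captured by poly-A selection, since the 3' end of Malat1 and of the long form of Neat1 is a triple helix in place of a poly-A tail, and the forms of Neat1 were not separated in these gene-level values.

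Several of the 9 genes share a start region with a neighbour. For Snhg1 and Zfas1 the neighbour is transcribed in the opposite direction from a start 106 or 81 bases away, and for Gas5 from one 427 bases away. Slc3a2, which encodes the heavy chain of amino acid transporters and lies head to head with Snhg1, had 328.6 and 319.4 TPM in Untr, 424 and 419 TPM in LPS, and 783 and 771.5 TPM in Met + LPS. It was called higher in both LPS vs. Untr (log2 fold change 0.38, limma adjusted p = 3.32e-05) and Met + LPS vs. LPS (0.88, adjusted p = 9.84e-06), while Snhg1 was not called in the former. Znfx1, which encodes a helicase-like sensor of double-stranded RNA and lies head to head with Zfas1, had 133 and 133 TPM in Untr, 318 and 327 TPM in LPS, and 313 and 307 TPM in Met + LPS. Like Zfas1, it was called higher in LPS vs. Untr (1.27, limma adjusted p = 1.74e-07) and not called in Met + LPS vs. LPS (-0.06, adjusted p = 0.172). The 2 genes share 82 of the 2929 exon bases of Zfas1 on opposite strands, and whether reads were counted by strand is not given in the sources used here, so reads of these bases could belong to either gene.

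Zbtb37, a zinc finger gene that runs from the start region of Gas5 in the other direction, had 3.27 and 3.58 TPM in Untr, 1.07 and 1.09 TPM in LPS, and 0.893 and 0.985 TPM in Met + LPS. It fell with LPS as Gas5 did (log2 fold change -1.09, limma adjusted p = 1.18e-04), but its Met + LPS libraries lay below its LPS libraries, with a value of -0.10 (adjusted p = 0.499). Near Snhg15, Myo1g, a myosin of blood cells that starts 7795 bases away on the same strand, had 89.0 and 91.6 TPM in Untr, 253 and 259 TPM in LPS, and 115 and 120 TPM in Met + LPS. It rose with LPS as Snhg15 did (1.49, limma adjusted p = 1.74e-07) and fell in Met + LPS vs. LPS (-1.12, adjusted p = 8.59e-06), where Snhg15 was not called. Frmd8, the neighbour of Neat1, was called lower in LPS vs. Untr (-0.72, limma adjusted p = 6.97e-06, and -0.20 after scaling) and in Met + LPS vs. LPS (-0.28, adjusted p = 0.00187). Trnau1ap near Snhg12 was called only in LPS vs. Untr (-0.36, limma adjusted p = 0.00544), and turned to 0.14 (adjusted p = 0.151) after scaling. For Gm37362 near Gas5 the values were -0.63 (limma adjusted p = 0.0621) in LPS vs. Untr and -0.26 (adjusted p = 0.460) in Met + LPS vs. LPS.

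**Figure D3:**
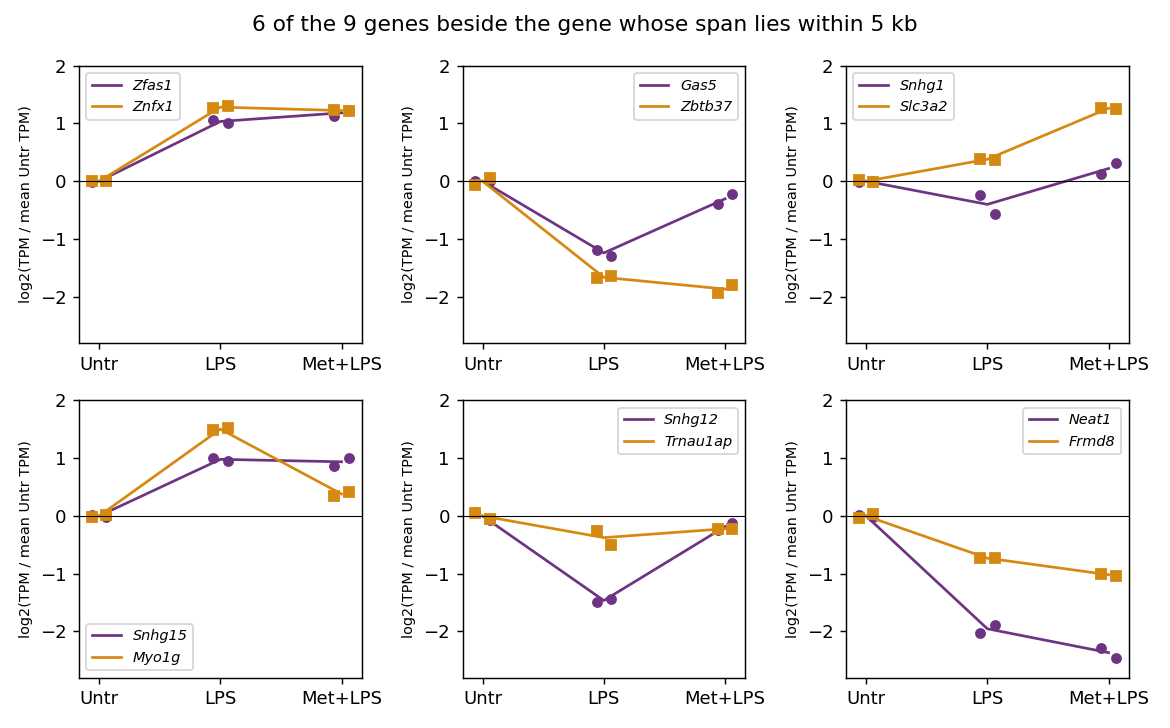
Log2 of the ratio of TPM to the untreated mean (y axis) in the 3 groups for Zfas1, Gas5, Snhg1, Snhg15, Snhg12 and Neat1 (purple circles) and for a neighbouring gene of each (orange squares), with each point 1 library and lines through group means. Zfas1 runs with Znfx1, whereas Gas5 leaves Zbtb37, and Snhg15 leaves Myo1g, in Met + LPS.

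The other noncoding snoRNA hosts were set beside the 7. Their list was also written with earlier results of these data known, so it is not an independent check. Of 14 listed, 12 had a row and 7 were tested. In LPS vs. Untr 4 were called lower, which were Snhg20 (log2 fold change -1.86), Snhg10 (-1.05), Snhg17 (-0.81) and Snhg5 (-0.29), and none higher. Of all tested genes, 60.1% were called lower and 16.2% higher there, and 27.6% and 30.6% after scaling. After scaling the only call left was that of Snhg20 (-1.45, limma adjusted p = 9.25e-04). With metformin pretreatment (Met + LPS vs. LPS) 4 of the 7 were called higher and none lower, both before and after scaling. Of all tested genes, 14.5% were called higher and 18% lower, and 15.6% and 17.4% after scaling. The median log2 fold change of the 7 was 0.55. The largest was Snhg6, with 28.6 and 25.9 TPM in Untr, 25.7 and 25.9 TPM in LPS, and 46.3 and 60.5 TPM in Met + LPS (1.01, SE 0.12, limma adjusted p = 7.50e-04). Only its Met + LPS libraries were high, and its LPS vs. Untr value was -0.07 (limma adjusted p = 0.576). Snhg17 (0.68), Snhg5 (0.49) and 1810032O08Rik (0.57), the symbol of Snhg16 in the table, made up the rest. Snhg10 had at most 9 reads in a library, and Snhg20 had 37 and 21 reads in the LPS libraries.

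Protein-coding genes can host snoRNAs too, many of them genes of ribosomal proteins and translation factors. Of 24 such genes, 17 were called lower and 3 higher in LPS vs. Untr, against 60.1% and 16.2% of all tested genes. Their median log2 fold change of -0.27 lay above the -0.48 of all tested genes. After scaling 15 were called higher and 1 lower, against 30.6% and 27.6% of all tested genes. The direction of this list in LPS thus rests on the scale. The largest changes were in Wdr43 (1.26) and Nop58 (0.98), both ribosome biogenesis genes, and in Eif4a2 (-0.87) and Rpl13a (-0.51). Between Met + LPS and LPS 11 were called higher and 1 lower, with a median of 0.20, and 14 and 1 after scaling. Of all tested genes, 14.5% were called higher and 18% lower, and 15.6% and 17.4% after scaling. Ncl, the nucleolin gene, rose by 0.56 (limma adjusted p = 2.31e-04), Eif4a2 by 0.48, Nop58 by 0.48 and Rpl13a by 0.44, whereas Wdr43 had -0.44. Reads of Rpl13a and other ribosomal protein genes are uncertain, since such genes have near-identical copies among which reads could be split.

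The 18 listed genes for snoRNP proteins and their assembly factors included 6 called lower and 3 higher in LPS vs. Untr. After scaling 8 were higher and none lower. Of all tested genes, 60.1% were called lower and 16.2% higher, and 27.6% and 30.6% after scaling. Besides Nop58, a core protein of box C/D particles, the assembly factor genes Pih1d1 (-0.68), Rpap3 (-0.64) and Ruvbl2 (-0.63) had the largest changes. Met + LPS vs. LPS gave 5 called higher and 1 lower, against 14.5% and 18% of all tested genes. The lower one was Znhit3 (-0.67, limma adjusted p = 7.55e-04), and Ruvbl2 (0.39) and Nufip1 (0.34) were among those that rose. Nonsense-mediated decay factors, which degrade spliced host RNAs, had 11 of 18 called lower and 2 higher in LPS vs. Untr, with a median of -0.45, close to the 60.1% called lower and the median of -0.48 of all tested genes. After scaling 5 were lower and 8 higher, against 27.6% and 30.6% of all tested genes. The endonuclease gene Smg6 (-1.26, and -0.78 after scaling), Pnrc2 (-1.25, and -0.73) and Dhx34 (-1.06, and -0.56) were lower on both scales, and Magohb (1.04) was higher. Relative to LPS, 14.5% of all tested genes were called higher and 18% lower in Met + LPS. Of the 18 decay factors, 3 were called higher and 4 lower, with a median of 0.02. These included Upf3a (0.53), Nbas (0.39), Upf2 (-0.41) and Upf1 (-0.29), the helicase at the centre of the pathway.

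Genes of paraspeckle proteins were called in both directions in LPS vs. Untr. Of 15, 5 were higher and 5 lower there, and after scaling 12 were higher and 1 lower. Of all tested genes, 16.2% were called higher and 60.1% lower, and 30.6% and 27.6% after scaling. The core paraspeckle genes Pspc1 (0.72) and Sfpq (0.46) were higher, and Nudt21 (-1.08) and Cpsf6 (-0.49), which encode subunits of a 3' end processing complex, were lower. Of the same 15, 1 rose in Met + LPS vs. LPS, Taf15 (0.60, limma adjusted p = 1.13e-04), and 4 were called lower, among them Tardbp (-0.31) and Sfpq (-0.29). In this comparison 14.5% of all tested genes were called higher and 18% lower. Of 15 nuclear speckle proteins, 4 were called higher and 4 lower in LPS vs. Untr, and 12 and 2 after scaling. The largest changes were in Pnn (-0.88), Srsf2 (-0.73), Sf3b1 (0.53) and Srsf3 (0.43). Pretreated libraries had 2 called higher and 3 lower than in LPS, the latter being the splicing factor genes Srsf2 (-0.68), Srsf5 (-0.46) and Srsf6 (-0.42), while Pnn had 0.41.

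**Figure D4:**
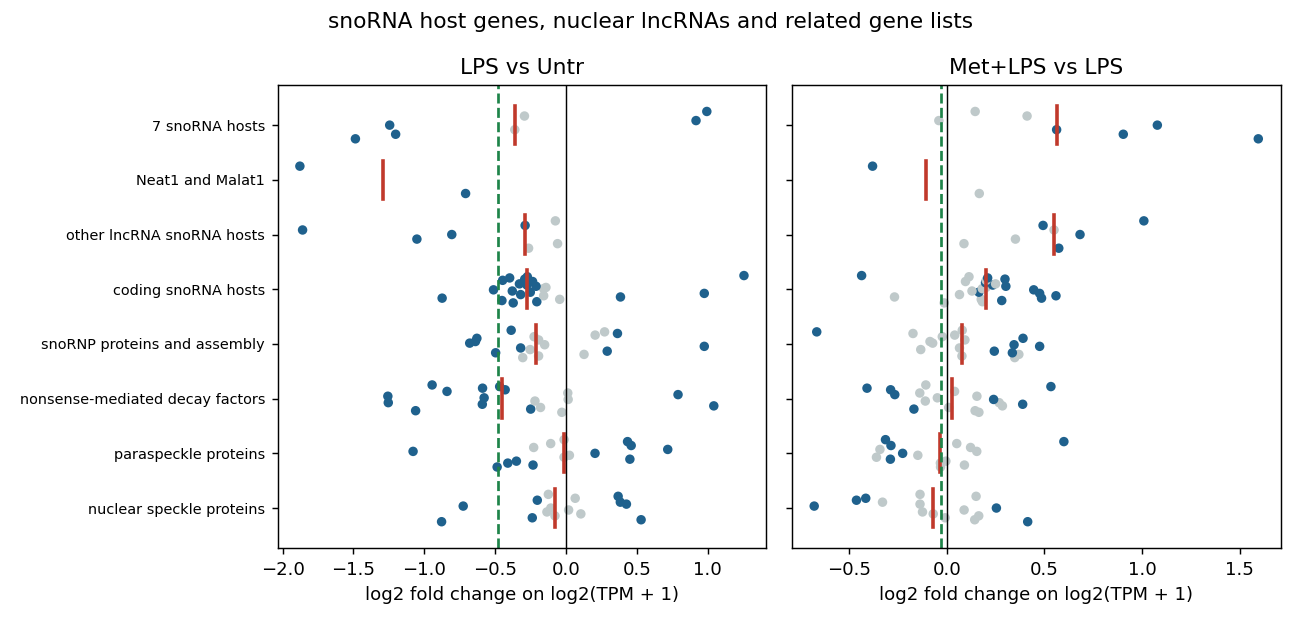
Log2 fold changes on the log2(TPM + 1) scale (x axis) in LPS vs. Untr and Met + LPS vs. LPS, where each point is 1 tested gene of a list, blue if its limma adjusted p-value was under 0.01 and grey if not, red lines are list medians, and the dashed green line is the median of all 12755 tested genes. In Met + LPS vs. LPS the 7 hosts (median 0.56) and the other noncoding hosts (0.55) sit to the right of the other lists.

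The genes whose profiles over the 6 libraries were most like that of Gas5, by the Euclidean distance between mean-centred log2(TPM + 1) values, were Tmem268 (distance 0.143), Gid4 (0.165) and Card14 (0.173). Among the 9 genes the nearest to Gas5 was Snhg12 (0.232), and the farthest were Zfas1 (2.23) and Snhg15 (2.13). Tmem268 had 31.5 and 33.3 TPM in Untr, 13.6 and 12.5 TPM in LPS, and 26.2 and 26.4 TPM in Met + LPS. The genes most like Neat1 were Il6ra (0.111), P2rx7 (0.163) and Tcta (0.166). Il6ra, the receptor chain for interleukin-6, had 51.1 and 50.2 TPM in Untr, 13.3 and 13.3 TPM in LPS, and 10.9 and 9.28 TPM in Met + LPS, a pattern within 0.111 of that of Neat1 on this measure. The distances describe these libraries only.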

How the data were processed

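Poly-A libraries were read single-end. The authors aligned reads to GRCm38 with STAR 2.6.1d and counted them per gene with featureCounts (Subread 1.6.3). They deposited TPM values without pooling replicates, and how counts became TPM is not given in the sources used here. The product of TPM and the exon length of GENCODE vM21 was a whole number of reads (within 0.05) for 96.4% to 96.6% of values above 0, and these recovered reads gave depth, Poisson intervals and an alternative test. The authors tested counts with DESeq2. Here genes that reached 1 TPM in 2 or more libraries were tested on log2(TPM + 1) with limma 3.58.1 (R 4.3.3; lmFit, eBayes with trend, all 6 libraries in a common fit, 3 residual degrees of freedom, Benjamini-Hochberg adjustment), so that fold changes of low genes are understated. The exact permutation test of 2 against 2 libraries cannot go below p = 0.333 and was not used. Tables were made in Python 3.11.15 with pandas 2.3.3 and scipy 1.17.1.

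The 9 genes and the lists were chosen with earlier results of these data known. Besides them, the text names up to 4 called genes per list and comparison by size of change, tested genes within 5 kb of a member, and the 3 genes most like Gas5 and Neat1 in profile. Some genes under this rule are not reported here. Of the gene identifiers, 54495 matched GENCODE. The fit was repeated with voom on recovered reads, median-ratio scaling, a pseudocount of 0.1, a filter of 5 TPM or none, only the compared groups, a replicate block, no trend, a threshold of 0.05, and each library left out.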

Additional observations from a re-analysis of the deposited data

How the results depend on the processing

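Of 378 recomputed fold changes of the 9 genes (14 settings), 336 kept their direction and their side of the threshold, 25 lost and 12 gained a call, and 5 changed sign. After median-ratio scaling these were Gas5 (0.23) and Snhg12 (0.32) in Met + LPS vs. Untr and Snhg1 (0.11) and Snhg8 (0.21) in LPS vs. Untr, and without Met + LPS replicate A it was Snhg15 in Met + LPS vs. LPS (0.03, in a range of -0.11 to 0.03 over the libraries left out). The total of called hosts stayed within 1.5 times the reported one in each comparison. By direction, those called lower in LPS vs. Untr went from 3 to 5 with a minimum of 5 TPM or a threshold of 0.05, and in Met + LPS vs. Untr scaling gave 4 higher and 0 lower in place of 2 and 1, and Gas5, the 1 lower call, was also lost with no filter and with no trend. The count for Neat1 and Malat1 fell from 2 to 1 after scaling in LPS vs. Untr and in Met + LPS vs. Untr, where Malat1 was lost. In Met + LPS vs. LPS it fell from 1 to 0 (Neat1) without a filter, with only the compared groups, without a trend and with the replicate block, and was 0 to 1 when each library was left out. The cause was not tested.

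Differences between replicates A and B were not correlated over genes from group to group (correlations -0.004, 0.028 and 0.006). This cannot tell whether the letters mark cultures handled together, which the sources used here do not say. With the replicate block 4 hosts were still called in Met + LPS vs. LPS, with Snhg1 lost (limma adjusted p = 0.0116) and Snhg8 gained (0.00393), Snhg8 was also called in LPS vs. Untr (0.00607), and Neat1 missed the threshold in Met + LPS vs. LPS (0.0115). Depth limited Epb41l4aos (23 reads in LPS replicate B) most.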

Other observations

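Other long noncoding RNAs, not among the noncoding hosts listed above, were examined beside the 9 genes. Of 21 symbols, which stand for 20 rows because Norad and 2900097C17Rik are the same gene, 7 were tested. In LPS vs. Untr 3 were called higher and 4 lower, where 16.2% of all tested genes were called higher and 60.1% lower. Mir155hg, the host of the inflammatory microRNA miR-155, had the largest change, from a mean of 0.330 TPM in Untr to 180.7 TPM in LPS (log2 fold change 7.09, limma adjusted p = 1.23e-09), and its Met + LPS mean was 157.4 TPM. Mir17hg rose too (0.91), whereas 1700020I14Rik (-1.05), Ftx (-0.91) and Tug1 (-0.79) fell. Ftx was a low gene, with a mean of 0.495 TPM in LPS. Of all tested genes, 14.5% were called higher and 18% lower in Met + LPS vs. LPS. Among these RNAs none was called higher there and 2 lower, of which Mir22hg (-0.72, limma adjusted p = 2.53e-04) was the larger, the Untr mean being 57.9, the LPS mean 74.6 and the Met + LPS mean 44.9 TPM. The other was 1700020I14Rik, also named Oip5os1 (-0.19, limma adjusted p = 0.00929, and 0.0121 after median-ratio scaling).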
